A study of Mus musculus with 157 samples.

Results

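Genes of the mTOR pathway and of amino acid uptake were followed along polysome gradients of activated B cells. They were taken from the deposited count table by gene symbol, and each of the 10 members matched 1 of its 19600 rows. Of these, 3 encode the kinase complexes (Mtor, Rptor and Rictor), 3 encode the switch upstream of mTOR (Tsc1, Tsc2 and Rheb) and 4 encode amino acid transporters (Slc7a5, Slc3a2, Slc1a5 and Slc38a2).

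mTOR is a protein kinase that links nutrient and growth signals to cell growth and protein synthesis. With Raptor it forms mTORC1, which phosphorylates regulators of translation, and with Rictor it forms mTORC2, which phosphorylates Akt. The TSC1 and TSC2 proteins keep the small GTPase Rheb inactive, Rheb in its active form switches mTORC1 on at the lysosome, and amino acids brought in by membrane transporters are needed for that step. Activated lymphocytes raise these transporters when they grow and divide.

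The samples were splenic B cells of C57BL/6Babr mice, all stimulated with lipopolysaccharide (LPS, 10 µg/ml), a mitogen for B cells. LPS cells had 48 h of LPS alone. LPS+ET cells had 48 h of LPS and then 20 µM etoposide, a topoisomerase II poison that breaks DNA, for 4 h. LPS+ET+KU cells had 47 h of LPS and then 10 µM KU55933, an inhibitor of the DNA damage kinase ATM, for 1 h before 4 h of 20 µM etoposide. All cells were given cycloheximide (100 µg/ml) for 3 min to hold ribosomes on mRNA, and extracts were spread over sucrose gradients. Fractions 4 to 7 held monosomes, 8 to 10 light polysomes and 11 to 16 heavy polysomes. The comparisons asked which ribosome-bound mRNAs differed after DNA damage and which of these differences were altered when KU55933 was added. No cells had KU55933 without etoposide. Effects of the compound itself and of ATM inhibition on the damage response therefore cannot be told apart. By the times above, LPS cells had no culture time to match the 4 h of etoposide. Etoposide and longer culture then cannot be told apart in the comparisons with LPS. For its flow cytometry, the study instead places etoposide in the last 4 h.

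Each treatment had 4 gradients of 13 fractions, which are named here by a code in the column names, LUL15 to LUL18. The code was taken to mark a library pool, which the labels do not state. Each code covered 1 gradient of each treatment. The fraction libraries held 14724 to 4170688 counts and the summed gradients 6404957 to 21449781. The LPS+ET gradient of LUL16 stood apart, with the lowest total and 30.4% of its counts in heavy fractions against 60.5 to 68.2% in the other LPS+ET gradients. B cell markers summed to 6746 to 10813 CPM (counts scaled by the library total) per gradient, T cell markers to 74.3 to 364, myeloid markers to 32 to 164 and the 1 erythroid marker found to 0 to 1.22. None of the 7 B cell, 5 T cell and 7 myeloid markers found was at 0 in every gradient. The B cell markers had median log2 differences of -0.72 (LPS+ET against LPS) and -0.55 (LPS+ET+KU against LPS), with 1 of 7 called in each, and none of 2 T cell markers tested was called. The 7 myeloid markers had a median log2 difference of 0.77 in LPS+ET against LPS. There, 0 passed the edgeR test (adjusted p under 0.01) and 2 had an unadjusted p under 0.05, as did 34.4% of all genes. In LPS+ET+KU against LPS their median was 0.41 and 1 passed the test. Their part in the results was not tested. In these bulk samples fewer cells of a type and less RNA per cell cannot be told apart. A single fraction 17 library (777 counts) held 1 count of Slc7a5 and none of the other members and was left out.

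Each library read the 3′ ends of mRNAs, so that a molecule gives about 1 tag whatever its length, and levels of different genes could be set side by side in CPM. Of the 4 transporter genes, Slc7a5 (ENSMUSG00000040010, chr8:121881150-121907694, minus strand) encodes LAT1, which carries leucine and other large neutral amino acids. Slc3a2 (ENSMUSG00000010095, chr19:8706882-8723369, minus strand) encodes the CD98 heavy chain that brings LAT1 to the cell surface. Slc1a5 (ENSMUSG00000001918, chr7:16781346-16798274, plus strand) encodes a glutamine exchanger, and Slc38a2 (ENSMUSG00000022462, chr15:96687394-96699698, minus strand) encodes a sodium-coupled transporter of small neutral amino acids. Coordinates are on GRCm38 and count from 1.

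The tags of each of these 4 genes were counted at a single site in the last untranslated exon. The 30 bases that end at the site are shown for them, for both sites of Mtor, and for Rptor and Tsc2, whose values are followed closely in the comparisons. The Tsc2 site lay 3 bases beyond the annotated end of its transcript, and its bases end there. They were read from GENCODE M21 transcripts, 5′ to 3′ on the gene's strand. Capitals mark AATAAA, the hexamer that recruits the cleavage machinery, at its copy nearest the site. The Rptor bases hold another copy just upstream, left in lower case.
Slc7a5: tgttttttttaaaagctattggaattctaa
Slc3a2: tcttcaAATAAAaacatcacccctgcctca
Slc1a5: ttttttagcAATAAAatggtgtcaaatgta
Slc38a2: ctgaactaaAATAAAtacatgattaatcaa
Mtor, distal: ccAATAAAtgacatcagaattttaaaagca
Mtor, proximal: atcAATAAAaatgtatcaattagactataa
Rptor: acagagtgttaataaagAATAAAgccgtga
Tsc2: gtactcctacatgaAATAAActgcacacgc

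The Slc7a5 window (chr8:121881150-121881179) held neither AATAAA nor ATTAAA, searched on the gene's strand, while the windows of Slc3a2 (chr19:8707570-8707599), Slc1a5 (chr7:16798214-16798243) and Slc38a2 (chr15:96687392-96687421) held AATAAA. Over all 13879 sites placed on a transcript, 57.3% of windows of this length held AATAAA, 16.0% ATTAAA and 71.4% either. The Slc3a2 site lay 688 bases before the annotated end of its transcript. Mtor was read at its annotated 3′ end (chr4:148557654-148557683, 89.5% of its tags) and at the end of a short transcript (chr4:148454944-148454973), and the deposited count adds both sites. The windows of Rptor (chr11:119899378-119899407) and Tsc2 (chr17:24596521-24596550) both held AATAAA. The counts of Tsc1 and Rictor also add a second site, with 27.5 and 10.8% of their tags. That of Tsc1 lay in a transcript annotated for nonsense-mediated decay, and its window held neither hexamer. That of Rictor lay in an intron or outside its transcripts.

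The transporter mRNAs were the most abundant members on ribosomes. In LPS gradients Slc3a2 stood at 590 ± 99.4 CPM (SD, n = 4 here and below) and Slc7a5 at 498 ± 47.6, with overlapping ranges, followed by Slc38a2 at 307 ± 37.5 and Slc1a5 at 110 ± 15.3. Mtor, at 57.4 ± 5.66 CPM, was the most abundant of the kinase and switch genes, and Rheb (25.9 ± 5.27) and Tsc1 (13.2 ± 1.11) came next. Tsc2 (7.10 ± 1.54), Rictor (6.79 ± 1.79) and Rptor (6.38 ± 0.935) overlapped with each other. The neighbours from Slc7a5 down to Tsc2 did not overlap. Depth followed these levels: Slc3a2 had 4770 to 31289 counts per gradient, and Rptor had 28 to 108, with 0 counts in 40 of 156 fraction libraries.

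**Figure D1:**
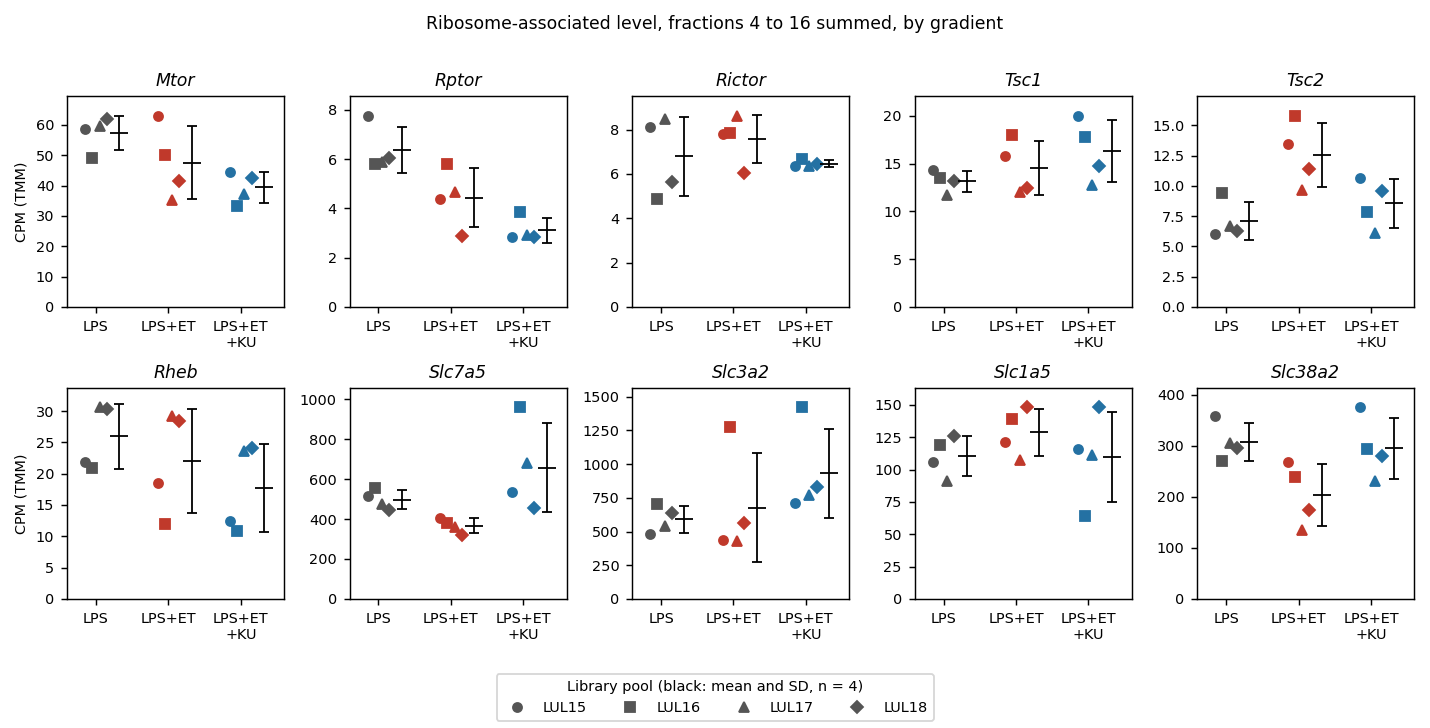
Ribosome-associated level of the 10 members, with counts of fractions 4 to 16 summed per gradient and scaled to TMM-normalised CPM (vertical axis, linear and from 0, own scale for each gene). Each point is a gradient, its shape the library pool, and the bars are mean and SD of 4 gradients. Slc7a5 runs from 448 to 556 in LPS, 321 to 407 in LPS+ET and 456 to 960 in LPS+ET+KU.

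Across the members, few differences in ribosome association (the level summed over fractions 4 to 16) passed the test, edgeR's quasi-likelihood test with a Benjamini-Hochberg adjusted p under 0.01. This test left out the pairing of gradients by pool, and the level it used weighs each fraction by the depth of its library. The study measured total mRNA separately, which was not used here. Changes in the amount of an mRNA and in its translation therefore cannot be told apart in these levels. All 10 members passed the expression filter. In LPS+ET against LPS, 0 of 10 passed while 12.7% of the 12755 genes tested did. An unadjusted p under 0.05 was found for 3 members and 34.4% of genes, and 1 member was called by DESeq2. With the ATM inhibitor, the comparison with LPS+ET gave 0 of 10 members and 0.455% of genes by edgeR. There, 3 members and 15.9% of genes had an unadjusted p under 0.05, and 1 member was called by DESeq2. The comparison of LPS+ET+KU with LPS called 1 of 10 members, Rptor, and 10.7% of genes. DESeq2 called 18.5, 3.25 and 18.3% of genes. With the library pool as a block, the pairing of the gradients, 2, 1 and 2 members were called in these comparisons, against 26.7, 6.36 and 28.1% of genes. The members' median log2 differences were -0.04, -0.23 and -0.03, beside medians of 0.03, 0.04 and 0.09 over all genes tested. The 3 comparisons share gradients and are not independent of each other.

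**Figure D2:**
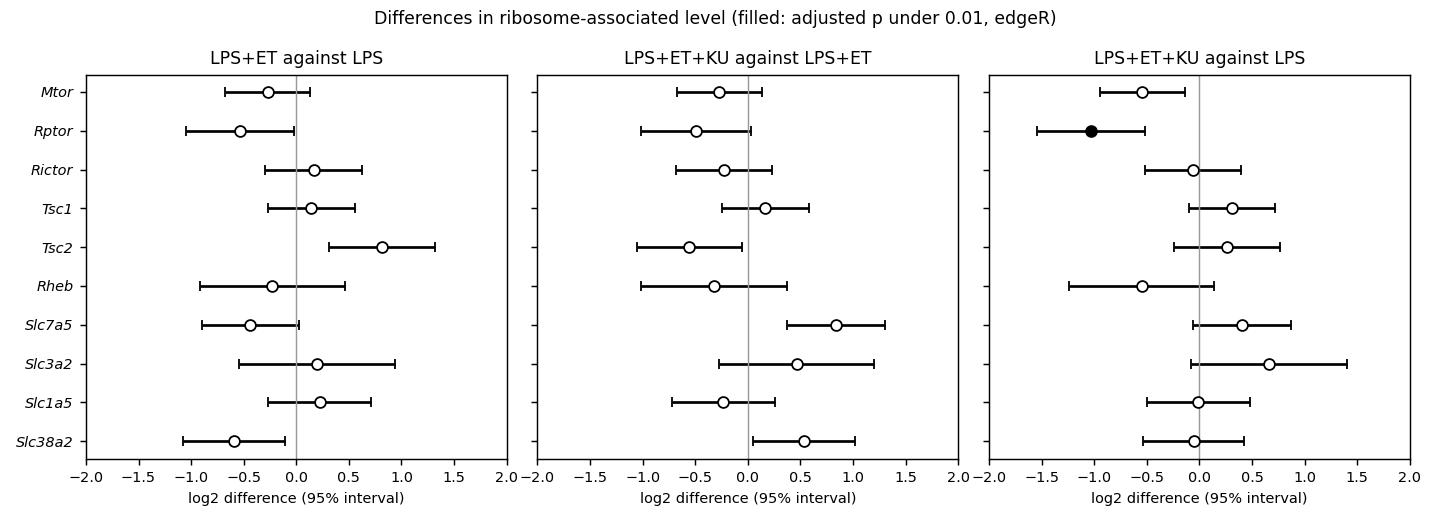
Log2 difference in ribosome-associated level for the 10 members (rows) in the 3 comparisons (panels), with 95% intervals from edgeR on 4 against 4 gradients; filled points have an adjusted p under 0.01. Only the Rptor point in LPS+ET+KU against LPS is filled, and the intervals of Slc7a5 and Slc38a2 lie above 0 in LPS+ET+KU against LPS+ET.

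Slc7a5, the leucine carrier, was lowest after etoposide, and its mean was highest with the ATM inhibitor. Its level was 514, 556, 473 and 448 CPM in LPS (pools LUL15 to LUL18, in this order for every list of 4), 407, 382, 360 and 321 in LPS+ET and 534, 960, 682 and 456 in LPS+ET+KU. Every LPS+ET gradient lay below every gradient of the other treatments, while LPS and LPS+ET+KU overlapped. Such separation of gradients was seen for 27.5% of all genes in LPS+ET against LPS and for 8.57% in LPS+ET+KU against LPS+ET. The log2 difference was 0.84 ± 0.22 (SE) in LPS+ET+KU against LPS+ET, higher in 4 of 4 pools, and did not pass the test (edgeR, adjusted p = 0.0607). It passed with the pool as a block (log2 0.80, adjusted p = 0.00554) and by DESeq2 (0.82, adjusted p = 0.00713). Over the fits without 1 gradient it ran from 0.61 to 0.98. Against LPS, the log2 difference of LPS+ET was -0.44 ± 0.22 (SE; adjusted p = 0.170). That of LPS+ET+KU against LPS was 0.40 (adjusted p = 0.195), and ran from 0.16 to 0.54 without 1 gradient.

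Slc3a2, the partner of LAT1, spread more widely. It was at 480, 705, 540 and 634 CPM in LPS, at 436, 1279, 430 and 562 in LPS+ET and at 710, 1421, 770 and 828 in LPS+ET+KU. The highest values of both etoposide treatments came from pool LUL16, and all LPS+ET+KU gradients lay above all LPS gradients. The log2 difference in LPS+ET+KU against LPS was 0.66 ± 0.34 (SE; adjusted p = 0.185; 0.0140 with the pool as a block), and 0.38 without the LPS+ET+KU gradient of LUL16. For LPS+ET against LPS it was 0.20 (adjusted p = 0.737), and its direction turned to -0.32 without the LPS+ET gradient of LUL16.

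Slc38a2 was also lowest after etoposide alone. It was at 359, 270, 305 and 295 CPM in LPS, at 268, 239, 135 and 174 in LPS+ET and at 375, 294, 232 and 280 in LPS+ET+KU. The LPS+ET gradients all lay below the LPS gradients and overlapped with LPS+ET+KU. The log2 difference in LPS+ET against LPS was -0.59 ± 0.23 (SE; adjusted p = 0.0763), and with the pool as a block it was -0.64 (adjusted p = 0.00482) and passed. The inhibitor against LPS+ET gave 0.54, higher in 4 of 4 pools (adjusted p = 0.255).

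Slc1a5, the glutamine exchanger, had overlapping levels in all treatments. They were 106, 119, 91.3 and 126 CPM in LPS, 121, 139, 108 and 148 in LPS+ET and 116, 64.3, 111 and 148 in LPS+ET+KU. The log2 differences were 0.22 (95% interval -0.27 to 0.71), -0.23 (-0.72 to 0.26) and -0.01 (-0.50 to 0.48) in LPS+ET against LPS, LPS+ET+KU against LPS+ET and LPS+ET+KU against LPS.

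Among the kinase genes, Rptor, which encodes the mTORC1 subunit that binds substrates (ENSMUSG00000025583, chr11:119602905-119899576, plus strand), was at 7.77, 5.80, 5.89 and 6.05 CPM in LPS, at 4.37, 5.79, 4.66 and 2.90 in LPS+ET and at 2.82, 3.86, 2.91 and 2.85 in LPS+ET+KU. All LPS+ET and LPS+ET+KU gradients lay below the LPS gradients. Rptor fell by 1.03 on the log2 scale in LPS+ET+KU against LPS (95% interval -1.54 to -0.52, adjusted p = 0.00819, lower in 4 of 4 pools). The call held without the LPS+ET gradient of LUL16 or LUL18 or the LPS+ET+KU gradient of LUL16, and was lost without any other single gradient, with log2 values of -1.16 to -0.92 and adjusted p of 0.00491 to 0.0347 over the 12 fits. It was also lost with upper-quartile factors (-0.94, adjusted p = 0.0134), with no expression filter (-1.04, adjusted p = 0.0169) and when each fraction was given equal weight (-0.57, adjusted p = 0.174). The call held with the pool as a block (-1.03, adjusted p = 0.00154) and by DESeq2 (-1.04, adjusted p = 0.000632). Etoposide alone against LPS gave a log2 difference of -0.54 ± 0.24 (SE; adjusted p = 0.127).

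Mtor itself (ENSMUSG00000028991, chr4:148448611-148557683, plus strand) was at 58.6, 49.2, 59.8 and 62.0 CPM in LPS, at 63.1, 50.2, 35.4 and 41.5 in LPS+ET and at 44.5, 33.4, 37.3 and 42.5 in LPS+ET+KU. The LPS+ET+KU gradients lay below all LPS gradients, a separation shared by 26.4% of genes in either direction. The log2 difference was -0.54 ± 0.19 (SE) and did not pass (adjusted p = 0.0528). Rictor (ENSMUSG00000050310, chr15:6708381-6800398, plus strand), the subunit that defines mTORC2, stayed between 4.89 and 8.63 CPM over all 12 gradients, and its groups overlapped in the 3 comparisons (log2 0.17, -0.23 and -0.07).

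In the TSC-Rheb switch, Tsc2, the GTPase-activating subunit (ENSMUSG00000002496, chr17:24595937-24632629, minus strand), was highest in LPS+ET. It was at 6.04, 9.38, 6.68 and 6.30 CPM in LPS, at 13.4, 15.8, 9.63 and 11.4 in LPS+ET and at 10.7, 7.81, 6.09 and 9.61 in LPS+ET+KU. All LPS+ET gradients lay above all LPS gradients. The log2 difference in LPS+ET against LPS was 0.81 ± 0.23 (SE; adjusted p = 0.0230), and it passed with the pool as a block (0.81, adjusted p = 0.00384) and by DESeq2 (0.81, adjusted p = 0.00935). With the inhibitor against LPS+ET it was -0.56, lower in 4 of 4 pools (adjusted p = 0.254). The gene was read from 59 to 172 counts per gradient.

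Tsc1 (ENSMUSG00000026812, chr2:28641228-28691167, plus strand), which stabilises Tsc2, ran from 11.7 to 20.0 CPM with overlapping groups (log2 0.14, 0.17 and 0.31). Rheb (ENSMUSG00000028945, chr5:24802823-24842624, minus strand), the GTPase that activates mTORC1, was at 21.9, 20.9, 30.6 and 30.4 CPM in LPS, at 18.6, 11.9, 29.2 and 28.4 in LPS+ET and at 12.4, 10.8, 23.6 and 24.1 in LPS+ET+KU. Within each pool LPS was highest and LPS+ET+KU lowest, and LUL15 and LUL16 lay below LUL17 and LUL18 in every treatment, so that the groups overlapped. The log2 difference in LPS+ET+KU against LPS was -0.55 ± 0.32 (SE; adjusted p = 0.236) and -0.62 with the pool as a block (adjusted p = 0.00425), where it passed.

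When the fractions were summed by class, again weighed by library depth, the member that passed in monosomes was Slc7a5. Its monosome level was 228, 212, 207 and 176 CPM in LPS and 92.6, 143, 81.3 and 96.9 in LPS+ET, with no overlap. It fell by 0.99 on the log2 scale (SE 0.23, adjusted p = 0.00833; 2.44e-05 with the pool as a block). This was 1 of 9 members tested in monosomes, against 9.52% of 8932 genes, and separation in this class was seen for 23.8% of genes. The call held without the LPS+ET gradient of LUL16 or any LPS+ET+KU gradient and was lost without any LPS gradient or the LPS+ET gradient of LUL15, LUL17 or LUL18 (log2 -1.25 to -0.89, adjusted p 0.00255 to 0.0297). The pool block called 2 members (24.6% of genes) and DESeq2 2 (13.4%), the other being Tsc2. The LPS+ET+KU gradients stood at 170, 240, 192 and 119 CPM, above the LPS+ET gradient of their own pool in 4 of 4 cases (log2 0.79, adjusted p = 0.124; 0.78 and 0.00163 with the pool as a block).

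Other members differed in monosomes without passing. Tsc2 was at 1.36 to 4.65 CPM in LPS, from only 2 to 14 counts, and at 8.92, 10.7, 4.10 and 7.84 in LPS+ET (log2 1.66, adjusted p = 0.0159; 0.00156 with the pool as a block; 0.00949 by DESeq2), and it passed without the LPS gradient of LUL16 (adjusted p = 0.00561, log2 2.27). Slc1a5 was at 205, 198, 139 and 214 CPM in LPS and at 121, 70.5, 115 and 134 in LPS+ET+KU, with no overlap, as for 20.2% of genes. Its log2 difference was -0.78 ± 0.22 (SE; adjusted p = 0.0302; 0.000234 with the pool as a block; 0.00492 by DESeq2). Slc3a2 was higher in LPS+ET+KU than in the other treatments in 4 of 4 pools, with log2 values of 0.47 against LPS+ET (adjusted p = 0.373; 0.00521 with the block) and 0.50 against LPS (0.151; 0.00125 with the block). By edgeR, 0 of 9 members passed for the inhibitor against etoposide alone (0.213% of genes) or against LPS (5.96%). In these comparisons 1 and 4 members had an unadjusted p under 0.05, as did 13.5 and 29.3% of genes. DESeq2 called 0 and 1 (1.35 and 10.5% of genes), and the pool block 2 and 2 (5.62 and 23.2%). Rptor did not pass the expression filter in monosomes or light polysomes.

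In light polysomes 0 of 9 members passed in any comparison by edgeR, against 10.6, 0.292 and 7.13% of genes in LPS+ET against LPS, LPS+ET+KU against LPS+ET and LPS+ET+KU against LPS. Unadjusted p-values under 0.05 were found for 2, 3 and 2 members, and for 32.6, 15.3 and 32.2% of genes. DESeq2 called 1, 0 and 0 members (15.2, 2.16 and 12% of genes). The call was Tsc2 (log2 1.12, adjusted p = 0.00661), whose gradients did not overlap (25.6% of genes). Without the LPS gradient of LUL17, Tsc2 was also called by edgeR (adjusted p = 0.00993). With the pool as a block, 4, 2 and 0 members were called (25, 5.35 and 24.1% of genes). Tsc2 was higher by 1.13 and the transporters Slc7a5, Slc3a2 and Slc38a2 had log2 values of -0.60, -0.58 and -0.75 in LPS+ET against LPS. Under the same fit Slc7a5 (0.84) and Slc38a2 (0.85) were higher in LPS+ET+KU than in LPS+ET.

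In heavy polysomes 0 of 10 members passed by edgeR, against 9.69, 0.572 and 7.95% of genes. An unadjusted p under 0.05 was found for 2, 1 and 3 members, and for 31.8, 14.9 and 32.9% of genes. DESeq2 called 0 members (15.3, 2.5 and 14.7% of genes). DESeq2 gave no adjusted p for Slc3a2 in this class. The pool block called 0, 1 and 0 members (20.6, 3.27 and 21.4% of genes). Slc7a5 was at 576, 678, 483 and 432 CPM in LPS+ET and at 859, 1849, 997 and 684 in LPS+ET+KU, with no overlap, as for 8.67% of genes (log2 1.02, adjusted p = 0.0909; 0.95 and 0.00820 with the block). Without the LPS+ET+KU gradient of LUL16 the log2 difference was 0.66 (adjusted p = 0.168). Slc3a2 in heavy polysomes was at 558, 866, 682 and 779 CPM in LPS, at 552, 3193, 540 and 741 in LPS+ET and at 1070, 2668, 1069 and 1194 in LPS+ET+KU. In LPS+ET LUL16, the fraction 13 library gave 4857 of its 5848 heavy counts. The LUL16 value stood far above the others of both etoposide treatments, and LPS+ET+KU lay above LPS without overlap, as for 25.1% of genes in either direction (log2 1.06, adjusted p = 0.174). Mtor and Rptor lay below LPS without overlap in LPS+ET+KU and did not pass. Mtor was at 66.6 to 83.5 CPM in LPS and 46.7 to 52.6 in LPS+ET+KU. Rptor was at 8.20 to 9.91 and 3.98 to 6.91 CPM.

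**Figure D3:**
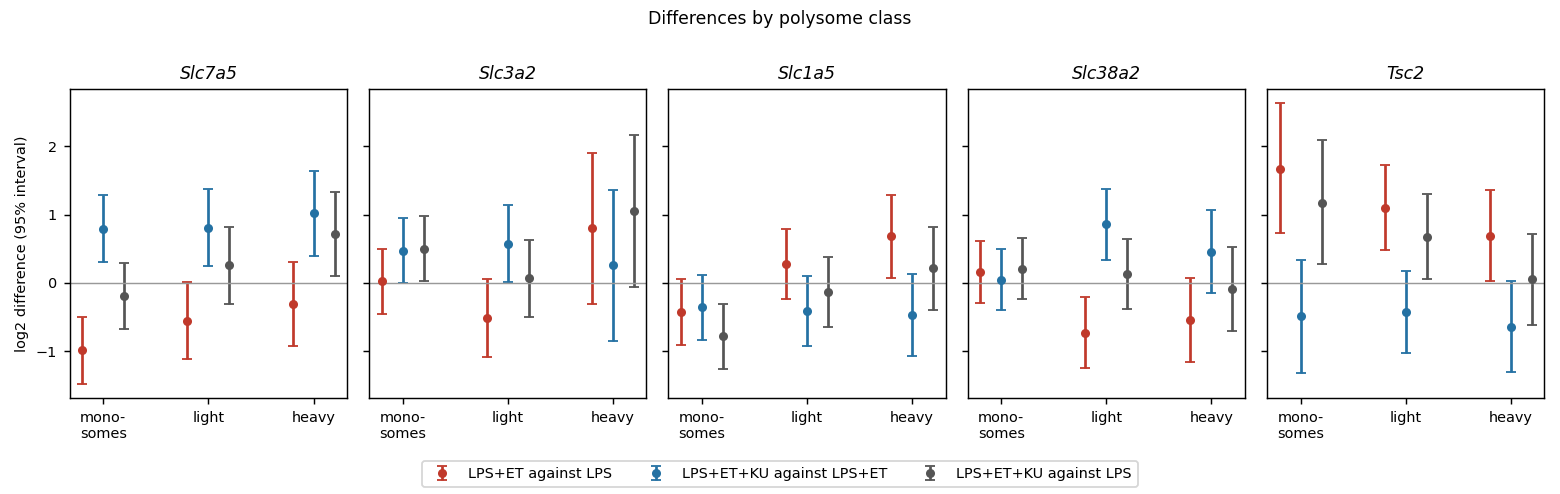
Log2 differences by polysome class for the 4 transporter genes and Tsc2, with 95% intervals from edgeR on 4 against 4 gradients per comparison (colours). Slc7a5 lies below 0 in monosomes in LPS+ET against LPS (-0.99) and above 0 in LPS+ET+KU against LPS+ET in the 3 classes (0.79, 0.81 and 1.02).

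The members had distinct places along the gradient. Because equal RNA concentrations entered each fraction library, a profile was drawn from the CPM of each fraction and divided by its sum. Every fraction thus weighs the same however much RNA it held, and the shares are not shares of mRNA molecules. The study reports less polysome assembly after etoposide, which these shares do not show. In LPS, Mtor lay deepest, with 30.1 ± 6.7% of its profile in fraction 16 and 26.9 ± 4.5% in fraction 15. Rheb peaked at fraction 11 (19.2 ± 4.1%), on the border of light and heavy polysomes. Slc3a2 peaked at fraction 14 (18.4 ± 1.8%) and Slc38a2 at fraction 15 (22.4 ± 4.8%), and fraction 12 held the largest mean share of Slc7a5 in LPS+ET (18.4 ± 5.9%) and LPS+ET+KU (18.6 ± 2.5%). Gradient by gradient, Slc7a5 peaked at fraction 12 in LPS LUL15 and LUL18 (16.5 and 15.1%), in LPS+ET LUL15, LUL17 and LUL18 (20.9 to 22.1%) and in LPS+ET+KU LUL15, LUL16 and LUL18 (19.1 to 20.7%). The fraction 12 libraries of LPS LUL17 and LPS+ET LUL16 gave only 13 and 18 Slc7a5 counts.

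**Figure D4:**
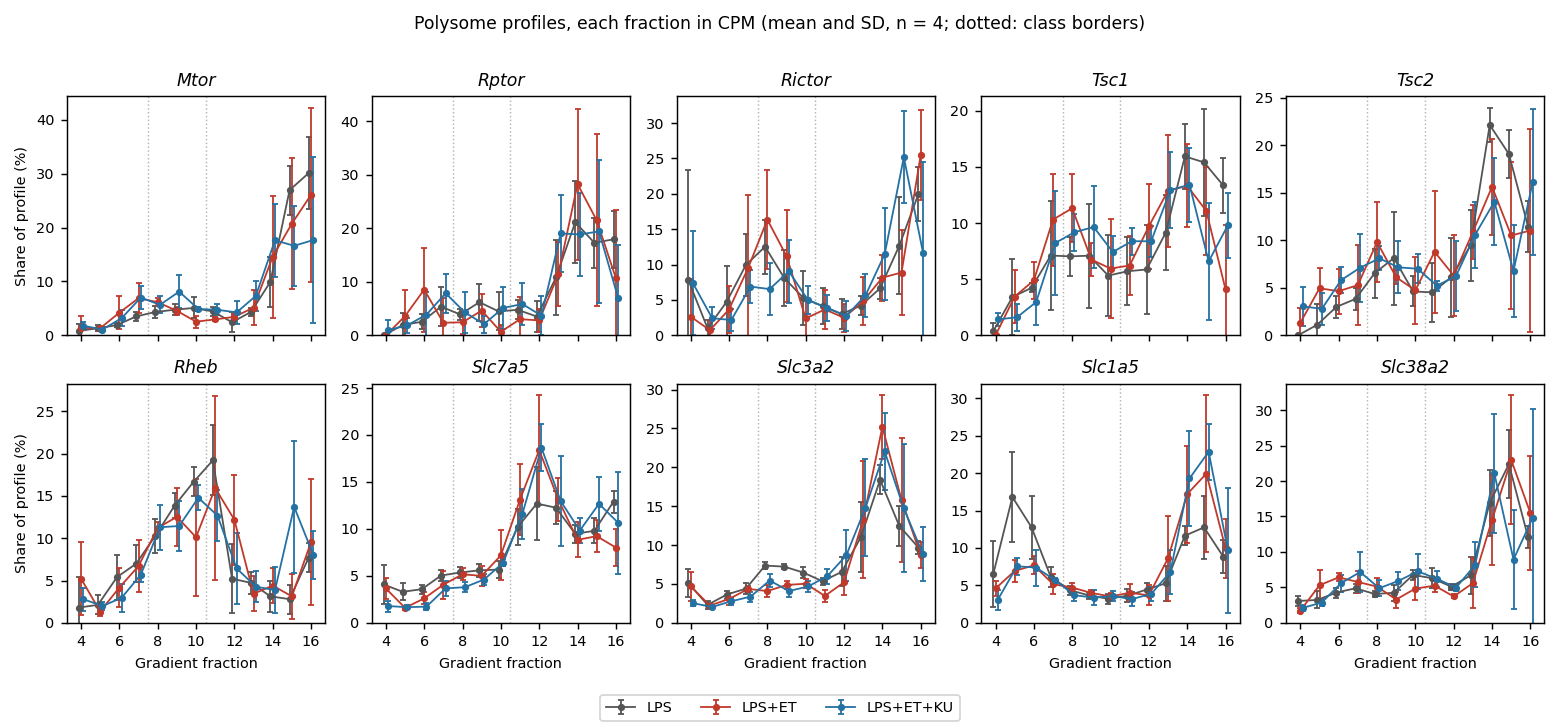
Share of each member's profile in fractions 4 to 16 (horizontal axis), with each fraction scaled to CPM and each gradient's profile summing to 100%; points are means, bars SD of 4 gradients, and dotted lines the borders between monosomes, light and heavy polysomes. Mtor rises to fraction 16, Rheb peaks at fraction 11 in LPS, and Slc1a5 has an additional monosome peak at fraction 5 in LPS (16.8%).

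Places along the gradient were then set beside coding length. The coding part of Mtor has 7647 bases and that of Rheb 552, against a median of 1227 over 6599 genes, and the mean fraction in LPS was 13.3 for Mtor and 10.2 for Rheb. Across the 6599 genes coding length and mean fraction had a Spearman rho of 0.55, and across the 10 members 0.60. These are values across genes read from the same libraries. Rictor, with 5124 coding bases (96.9 percentile), had a mean fraction of 11.0 ± 1.14 (9.41 to 11.9 over the gradients), near the median of 10.7 over 8000 genes. Its heavy share was 50.6%, below their median of 55.2%. Both values came from a mean of under 100 counts per gradient. Slc1a5, with 1665 coding bases, had the lowest mean fraction of the members (9.87 ± 0.682), below Slc3a2 (11.5, 1695 bases) and Slc7a5 (11.5, 1536 bases).

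The Slc1a5 profile had a peak in monosomes besides that in heavy polysomes in LPS. There, fraction 5 held 16.6, 25.4, 12.1 and 13.2% of its profile, from 44 to 321 counts, and fraction 15 held 12.7, 7.05, 17.0 and 14.3%. After etoposide, fraction 5 held 8.20, 8.22, 5.67 and 5.63% and fraction 15 held 12.7, 9.10, 28.7 and 29.2%. With the inhibitor, fraction 5 held 7.14, 9.00, 6.30 and 7.77% and fraction 15 held 23.6, 19.4, 20.7 and 27.8%. Every LPS gradient had a larger share in fraction 5 than every etoposide-treated gradient, a separation found for 7.78% of 8000 genes (mean of 100 counts or more per gradient) in LPS+ET against LPS and 8.2% in LPS+ET+KU against LPS, and in fraction 15 the groups overlapped between LPS and LPS+ET. Fraction 5 was the peak of the mean LPS profile. In fraction 6 next to it the groups overlapped. It held 15.8, 6.78, 12.7 and 15.7% in LPS and 7.00, 6.49, 8.07 and 9.15% in LPS+ET. With the inhibitor it held 7.09, 4.79, 10.6 and 7.04%.

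The share of a gene's profile in heavy polysomes was then compared with limma on a logit scale for the 8000 genes with a mean of 100 counts or more per gradient. Of the 10 members 8 qualified, and Rptor and Rictor did not. The median share over these genes was 55.2, 53.9 and 54.7% in LPS, LPS+ET and LPS+ET+KU. In LPS, Mtor (78.2 ± 2.79%) stood at the 95.2 percentile of genes and Tsc2 (72.8 ± 6.03%) at the 88.1 percentile, while Slc1a5 (46.6 ± 5.69%) and Rheb (42.8 ± 7.83%) stood at the 32.6 and 26.4 percentiles.

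Slc1a5 was the 1 member called. Its heavy share was 42.1, 43.8, 54.8 and 45.6% in LPS, 61.9, 63.1, 63.3 and 65.3% in LPS+ET and 65.4, 67.4, 64.4 and 65.5% in LPS+ET+KU. Both etoposide treatments lay above all LPS gradients and overlapped with each other. The share rose by 0.79 on the logit scale in LPS+ET+KU against LPS (95% interval 0.50 to 1.07, adjusted p = 0.00817, higher in 4 of 4 pools), 1 of 8 members against 0.875% of genes. For LPS+ET against LPS the logit difference was 0.69 (0.41 to 0.97) and did not pass (adjusted p = 0.0192), where 0 of 8 members and 0.312% of genes did. Between the etoposide treatments it was 0.10 (-0.18 to 0.38), and 0 of 8 members and 0% of genes passed by limma, against 1 member and 8.54% of genes at an unadjusted p under 0.05. That value was passed by 3 members in LPS+ET against LPS (20.6% of genes) and by 5 in LPS+ET+KU against LPS (21%). The pool block called 0 of 8 members in each comparison (0.425, 0 and 0.637% of genes).

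The Slc1a5 call depended on how the fractions were weighed. With the counts as deposited, without scaling each fraction, which is the RiboLoad of the study, its share was 50.6, 52.9, 60.3 and 58.4% in LPS and 53.7, 48.3, 61.7 and 60.8% in LPS+ET+KU, and the logit difference was 0.02 (adjusted p = 0.992). With the pool as a block the adjusted p was 0.0112, and with a minimum of 30 counts 0.0175. Without 1 gradient the call held only when LPS LUL17 or LPS+ET LUL16 was left out (logit 0.73 to 0.90, adjusted p 0.00587 to 0.0321 over 12 fits).

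Other members had heavy shares that differed in opposite directions, and none passed. Slc3a2 went from 63.5 ± 1.15% in LPS to 71.7 ± 2.84% in LPS+ET and reached 75.1 ± 3.60% in LPS+ET+KU, with both etoposide groups above all LPS gradients (logit 0.56 in LPS+ET+KU against LPS, adjusted p = 0.0312; 0.28 with the counts as deposited). Gradients were apart in heavy share for 13.5% of the 8000 genes in LPS+ET against LPS, 5.34% in LPS+ET+KU against LPS+ET and 16.2% in LPS+ET+KU against LPS. Slc7a5 was at 66.1, 67.0, 68.0 and 68.2% in LPS, at 73.2, 64.2, 74.8 and 70.7% in LPS+ET and at 75.7, 76.8, 75.4 and 77.5% in LPS+ET+KU, where all gradients lay above those of the other treatments. Its logit difference was 0.45 against LPS (adjusted p = 0.0660) and 0.28 against LPS+ET (adjusted p = 0.570), and with the counts as deposited these were 0.13 (adjusted p = 0.952) and, in the other direction, -0.11 (adjusted p = 0.999). Mtor was at 76.6, 82.1, 75.8 and 78.5% in LPS and at 64.2, 70.1, 74.1 and 64.7% in LPS+ET+KU, with no overlap (logit -0.51, adjusted p = 0.0811). Tsc2 was at 72.8 ± 6.03% in LPS and 59.0 ± 6.87% in LPS+ET+KU (logit -0.62, adjusted p = 0.0613).

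**Figure D5:**
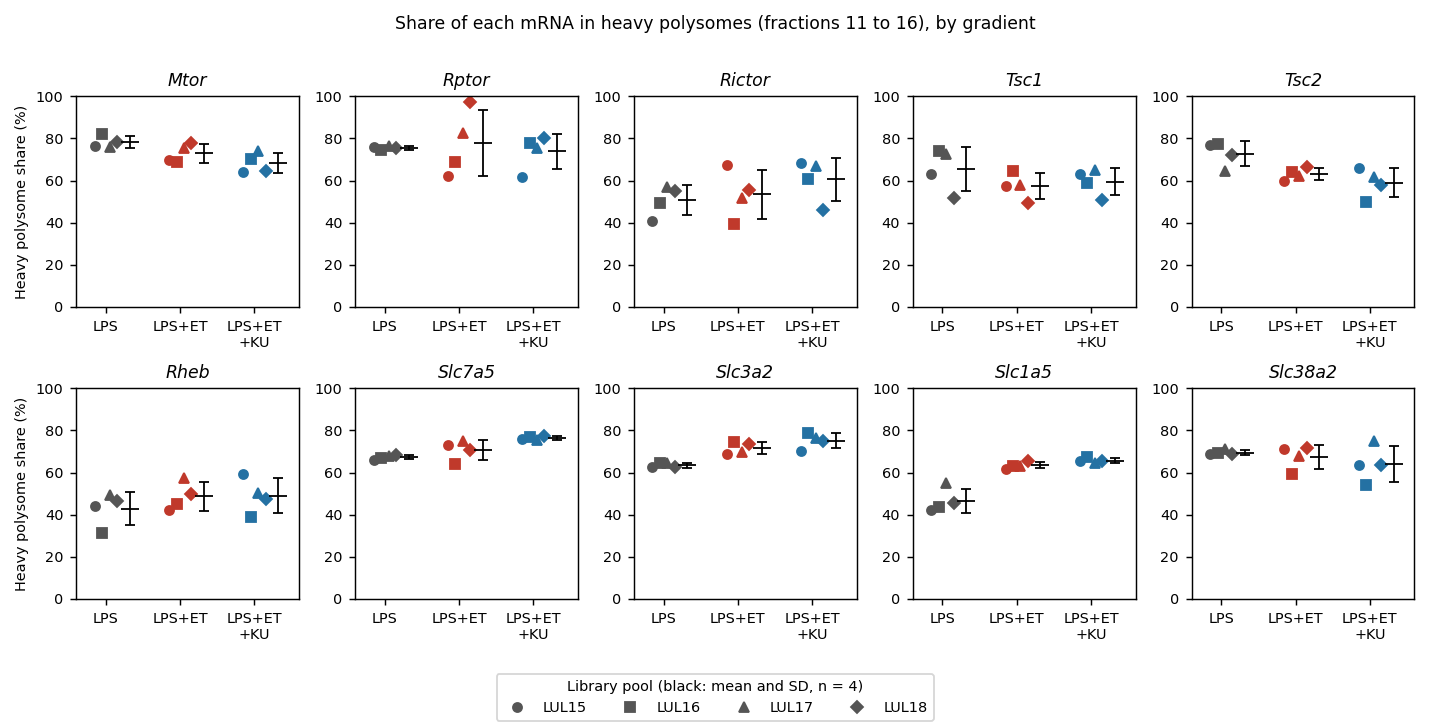
Share of each member's profile in heavy polysomes (fractions 11 to 16, vertical axis 0 to 100%), each fraction scaled to CPM; points are gradients, shapes are library pools, and bars are mean and SD of 4 gradients. The 4 LPS points of Slc1a5 (42.1 to 54.8%) lie below its 8 other points (61.9 to 67.4%).

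A test over the whole profile compared a model with fraction, treatment and their interaction against fraction alone, and so called a gene for a change in level, shape or both. It counts the 13 libraries of a gradient as independent. It called 3 of 10 members in LPS+ET against LPS, Slc7a5 (adjusted p = 8.09e-06), Tsc2 (0.000707) and Slc1a5 (0.00886), against 31% of genes. For LPS+ET+KU against LPS+ET it called Slc7a5 (1.02e-06), Slc3a2 (0.00294) and Slc38a2 (0.00926), again 3 of 10, against 8.01% of genes. For the shape alone, the interaction, 0 members were called by edgeR in either comparison (1.37 and 1.05% of genes), where Slc1a5 (unadjusted p = 0.00330) and Slc3a2 (0.04998) were under 0.05 in the first and Slc38a2 (0.0225) in the second. With a term for each gradient, the shape differed for Slc1a5 (adjusted p = 0.00246) and Slc3a2 (0.00425) in LPS+ET against LPS, 2 of 10 against 5.72% of genes, and for none of 10 in LPS+ET+KU against LPS+ET (3.63%).

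The wider pathway was read from lists of 88 genes, of which 87 were in the table and 82 were tested for ribosome association. The lists were chosen with earlier results of these data known, so their counts and medians only describe them. After etoposide alone, against LPS, 7 rose (7.88% of all genes did) and 6 fell (4.81%). With the inhibitor, 8 rose (6.25%) and 3 fell (4.42%) against LPS. Against LPS+ET 0 of the 82 passed by edgeR (0.22% of genes rose and 0.235% fell). Of the 82, 12 were below an unadjusted p of 0.05 (15.9% of all genes), and 1 that rose and 1 that fell were called by DESeq2. The median log2 values of the 82 were 0.06, 0.09 and 0.07, beside 0.03, 0.09 and 0.04 over all genes. By edgeR in LPS+ET against LPS, 0 of 9 other subunits of the complexes, 0 of 2 other TSC and Rheb genes and 0 of 10 GATOR and KICSTOR genes were called. Of these, 2, 1 and 1 were below an unadjusted p of 0.05 (34.4% of all genes), with 0, 0 and 1 called by DESeq2. With the pool as a block the counts became 10 higher and 12 lower, 17 and 14, and 3 and 4, where the block called 26.7, 28.1 and 6.36% of all genes.

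Of the 12 inhibitors of mTORC1 that answer to stress and nutrients, 3 rose in LPS+ET against LPS and none fell, with a list median of 0.62, and 4 rose in LPS+ET+KU against LPS, with a median of 0.70. Over all genes, 7.88 and 6.25% rose in these comparisons. Sesn2, a leucine sensor that holds mTORC1 back, rose from 37.1 ± 13.0 to 269 ± 60.4 CPM (log2 2.86, adjusted p = 2.49e-05). Ddit4, an inhibitor that acts through TSC, rose from 131 ± 13.1 to 443 ± 89.2 CPM (log2 1.76, adjusted p = 0.00117). Its relative Ddit4l was read from only 3 to 4 counts per LPS gradient (0.264 CPM) and from 56 to 407 in LPS+ET (25.6 CPM; log2 6.62 ± 0.68 SE, adjusted p = 1.74e-05). With the inhibitor these genes stood at 159 ± 55.4 (Sesn2), 438 ± 246 (Ddit4) and 8.32 ± 4.81 CPM (Ddit4l), each above LPS (log2 2.10, 1.74 and 4.99), and their differences from LPS+ET did not pass (log2 -0.76, -0.02 and -1.64). Sesn3, of the same family as Sesn2, was called in LPS+ET+KU against LPS (log2 0.85, adjusted p = 0.00839), and of 12 fits without 1 gradient only that without LPS+ET LUL16 kept the call (adjusted p up to 0.0334).

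Downstream of the mTOR complexes, 3 of 12 listed genes rose (7.88% of all genes did) and 1 fell (4.81%) in LPS+ET against LPS. They were Ulk1, the kinase that starts autophagy (39.7 ± 9.30 to 261 ± 104.3 CPM, log2 2.72), Lpin1, a phosphatidate phosphatase (15.7 ± 3.38 to 54.3 ± 13.2 CPM, log2 1.79), and Sgk1, a kinase downstream of mTORC2 (2.19 ± 0.559 to 6.67 ± 1.41 CPM, log2 1.61). Tfeb, a transcription factor for lysosomal genes, fell from 38.7 ± 10.4 to 13.3 ± 4.05 CPM (log2 -1.55). These 4 were also called in LPS+ET+KU against LPS, with log2 values of 2.02, 0.96, 1.77 and -1.55. Flcn, which acts on the Rag GTPases and was the 1 gene called of 11 in their list, rose from 8.78 ± 0.885 to 19.5 ± 5.27 CPM in LPS+ET (log2 1.16) and stood at 20.4 ± 6.82 CPM with the inhibitor (log2 1.22 against LPS).

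Among 19 other amino acid transporters tested, 4 fell in LPS+ET against LPS (4.81% of all genes did) and none rose (7.88%), with a median of 0.02. Slc15a4, a lysosomal peptide and histidine carrier, went from 252 ± 34.2 to 133 ± 12.8 CPM (log2 -0.92), Slc43a2, a leucine carrier, from 35.7 ± 5.63 to 13.5 ± 5.72 CPM (-1.41), Slc38a1, a glutamine carrier, from 225 ± 56.0 to 115 ± 19.5 CPM (-0.97), and Slc66a1, a lysosomal carrier of cationic amino acids, from 16.6 ± 6.09 to 7.54 ± 0.873 CPM (-1.15). Slc15a4 also fell in LPS+ET+KU against LPS (log2 -0.96, adjusted p = 0.00110), the 1 call in that comparison by edgeR, where DESeq2 called 7 of the 19. Slc66a1 stood at 15.9 ± 4.55 CPM in LPS+ET+KU, above LPS+ET by 1.08 without passing (adjusted p = 0.0498). Pik3ca, the catalytic subunit of a lipid kinase upstream of Akt and the 1 gene called of 7 in the Akt arm, fell from 14.4 ± 2.11 to 8.16 ± 1.68 CPM in LPS+ET (log2 -0.82). Prr5, an mTORC2 subunit, went from 36.1 ± 4.92 CPM in LPS through 23.1 ± 4.51 in LPS+ET to 14.6 ± 3.05 in LPS+ET+KU, and passed in LPS+ET+KU against LPS (log2 -1.30, adjusted p = 0.000555).

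Of the 13 list genes called in LPS+ET against LPS, Sesn2, Ddit4, Ddit4l, Ulk1, Lpin1, Sgk1 and Slc15a4 kept their calls in all 12 fits without 1 gradient. Flcn, Tfeb, Pik3ca, Slc38a1, Slc43a2 and Slc66a1 each lost theirs in 4 to 6 of these fits, always without an LPS or LPS+ET gradient, at adjusted p of up to 0.0266. For LPS+ET+KU against LPS, Flcn lost its call without LPS LUL15, LUL16 or LUL18 (adjusted p up to 0.0163). Tfeb lost its call without LPS LUL15, LUL16 or LUL18 or LPS+ET+KU LUL15, LUL17 or LUL18 (up to 0.0207), and Lpin1 without LPS LUL15, LUL16 or LUL17, LPS+ET LUL18 or LPS+ET+KU LUL16 or LUL18 (up to 0.0256). The number of list genes called lower in LPS+ET against LPS ran from 1 to 7 over the 12 fits, and was lowest, under the full count by over 1.5 times, without LPS LUL15, LUL16 or LUL18 or LPS+ET LUL15, LUL17 or LUL18. With equal weight per fraction, Sgk1 (adjusted p = 0.0235), Pik3ca (0.0430), Slc43a2 (0.0244) and Slc66a1 (0.0363) lost their calls in LPS+ET against LPS, so that 3 list genes were called lower, and Sgk1 (0.0134), Tfeb (0.0191) and Sesn3 (0.144) lost theirs in LPS+ET+KU against LPS. Pik3ca was also lost with no expression filter (0.0116) and with only the 8 gradients compared (0.0146), as was Sesn3 (0.0259 and 0.0110), and Slc38a1 with upper-quartile factors (0.0135).

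Over the 12 gradients, the genes whose log2 CPM was most like that of Slc7a5 among 5544 genes with a mean of at least 20 CPM were Phactr4 (Pearson r = 0.91), Cebpg (0.88), H2-Eb2 (0.88), Rhot2 (0.86) and Ddit3 (0.86). Those most like Mtor were Heatr1 (0.91), Naa15 (0.91), Eftud1 (0.91), Atrx (0.90) and Ankrd17 (0.90). The 12 points share pools and treatments, and these genes are the top of a long ranking.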

How the data were processed

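Libraries of 3′ end tags were made by the authors from fractions of sucrose gradients (10 to 50% per the methods) after reverse transcription of equal RNA concentrations. Per the study's methods, PCR duplicates were removed by random barcode bases, A tracts trimmed, and tags aligned to GRCm38 and assigned to Ensembl genes. The submitters' processing notes name TopHat, HTSeq and DESeq2. The deposited table holds whole counts per gene without normalization (19600 genes, 157 libraries). Of the columns, 79 matched 1 labelled sample and 78 only a treatment and fraction, so gradients were named by pool. Gene coordinates were shifted by 1 to count from 1.

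Counts were summed per gradient over fractions 4 to 16 or per class and tested with edgeR 4.0.16 (TMM, default expression filter, quasi-likelihood F-test, treatment only, all 12 gradients) with Benjamini-Hochberg adjustment over all genes tested; 0.01, the study's threshold, was used. The profile test used the fraction libraries of the 8 gradients compared. Heavy shares were tested with limma 3.58.1 (offset of 0.5 counts). All such p-values are two-sided. DESeq2 1.42.0 was an alternative, as were upper-quartile factors, no expression filter, a pool block, equal fraction weights, only the gradients compared, and leaving out each gradient; alternatives for the pathway lists were chosen after seeing the data. Deviations from treatment means correlated at r of 0.288 to 0.790 between gradients of the same pool, all 12 above 0.1. Such correlations exceeded 0.1 in 4 of 36 different-pool pairs. Pools, read from the names of the columns, were therefore treated as pairs in the block fits, while the main tests left the pairing out. The study states 4 biological replicates; nothing in the labels says that these came from separate animals, and p-values measure the spread between these gradients. Scripts were tested on simulated data with R 4.3.3 and Python 3.11.15.

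The members and all gene lists (complex subunits, Rag and Ragulator, GATOR and KICSTOR, stress inhibitors, Akt arm, effectors, other transporters, cell markers) were chosen with earlier results of these data known. All members were named. Of the lists, genes called in any comparison were named (15), and for likeness the 5 genes with the largest r. NK cell markers were not analysed here.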

Additional observations from a re-analysis of the deposited data

Results flagged for a closer look

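Of 60 groups of 4 gradients tested for a value far from the rest, 4 were found, and chance gives about 1 in 20 such groups. For Rptor, the LPS gradient of LUL15 stood at 7.77 CPM while the others lay between 5.80 and 6.05, and the LPS+ET+KU gradient of LUL16 stood at 3.86 CPM while the others lay between 2.82 and 2.91. For Slc3a2, the LUL16 gradient stood apart in both etoposide treatments, at 1279 CPM in LPS+ET (others 430 to 562) and at 1421 CPM in LPS+ET+KU (others 710 to 828). The LUL16 gradient of LPS+ET also had 30.4% of its counts in heavy fractions, and that of LPS+ET+KU 37.6%. Its part in these values was not tested.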

How the results depend on the processing

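With the library pool as a block (the pairing), 2, 1 and 2 members were called for ribosome association in LPS+ET against LPS, LPS+ET+KU against LPS+ET and LPS+ET+KU against LPS, 2, 2 and 2 in monosomes, 4, 2 and 0 in light and 0, 1 and 0 in heavy polysomes, and 0 for the heavy share in LPS+ET+KU against LPS. With a term per gradient the profile shape differed for 2 members in LPS+ET against LPS, against 0 without it, and the block changed no other member count. DESeq2 called 1, 1 and 1 members for ribosome association, 2, 0 and 1 in monosomes and 1 in light polysomes for LPS+ET against LPS. For LPS+ET+KU against LPS, upper-quartile factors, no expression filter and equal weight per fraction each called 0 members, and counts as deposited or a 30-count minimum 0 for the heavy share. The profile interaction alone called 0 members in both comparisons, and its gradient-term fit called 0 for LPS+ET+KU against LPS+ET. Without 1 gradient, member counts ran from 0 to 1 for ribosome association and the heavy share in LPS+ET+KU against LPS and for monosomes and light polysomes in LPS+ET against LPS. Directions of small differences turned. Equal weight gave Mtor 0.042 (LPS+ET against LPS), Rictor 0.010 (LPS+ET+KU against LPS+ET) and, in LPS+ET+KU against LPS, Rictor 0.37, Slc1a5 0.14 and Slc38a2 0.066. Upper-quartile factors gave 0.022, 0.099 and 0.040 for the last 3, with a median over all genes of 0.19 in place of 0.09. Heavy shares from counts as deposited gave Rheb -0.19 (LPS+ET against LPS) and -0.074 (LPS+ET+KU against LPS); between the etoposide treatments they gave Tsc1 -0.11, Slc7a5 -0.11, Slc3a2 -0.25 and Slc1a5 -0.51. Without 1 gradient, ribosome association ran from -0.32 to 0.36 for Slc3a2 (LPS+ET against LPS) and, in LPS+ET+KU against LPS, from -0.20 to 0.049 for Rictor, -0.19 to 0.18 for Slc1a5 and -0.19 to 0.042 for Slc38a2. The heavy share ran from -0.14 to 0.039 for Slc38a2 (LPS+ET against LPS) and, between the etoposide treatments, from -0.018 to 0.21 for Tsc1, -0.12 to 0.15 for Rheb and -0.31 to 0.0035 for Slc38a2. The causes were not tested. Counts of 28 to 108 per gradient limit Rptor.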
